A study of Mus musculus with 6 samples.

Results

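Heme, the iron-bearing ring that carries oxygen and electrons in many proteins, is built by a chain of enzymes that starts and ends in mitochondria. The 9 genes described here encode 7 enzymes of that chain (Alas1, Alad, Uros, Urod, Cpox, Ppox and Fech) and 2 carriers of the inner mitochondrial membrane that serve it (Slc25a37 and Slc25a38). They were taken as a named list, not by their values, and every probe whose transcript accession named one of them was read. All 9 were measured, among 15736 genes tested, through 11 probes of 55681. Expression was profiled on 6 one-colour Agilent arrays, 1 per mouse, in macrophages grown from C57BL/6 bone marrow for 5 days in medium with GM-CSF (a growth factor for macrophages and granulocytes) at 10 ng/mL. The Bach1 knockout group (genotype label Bach1 KO) held 3 mice, called KO 947, KO 948 and KO 949, and the wild-type group (WT) held 3 mice, called WT 1, WT 2 and WT 3. All mice were 11 weeks old, and each genotype held 2 mice labelled male and 1 labelled female (KO 949 and WT 3). The labels do not say how the Bach1 allele was made, and no treatment beyond the culture medium is named for either genotype.

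Heme synthesis begins when Alas1 joins glycine and succinyl-CoA in the matrix, the rate-limiting step outside red cells, and heme itself holds Alas1 down. The product passes through enzymes in the cytosol, re-enters mitochondria for the last oxidations and receives iron from Fech. Bach1 is a repressor that binds DNA with small Maf proteins and is released and degraded when it binds heme, so the comparison asks whether genes that make heme differ in cells without it, as genes that break heme down are known to.

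Before the comparison, the arrays and their labels were checked. Spots well above background made up 62.5% to 65.1% of the KO arrays and 70.3% to 73.2% of the WT arrays, and no spot was saturated. KO 948 and KO 949 lay on a slide of their own, whereas KO 947 shared a slide with the 3 WT arrays. The Y-linked transcripts Ddx3y and Eif2s3y were at -7.61 and -7.75 on KO 949 but at 0.92 and 3.56 on WT 3, which lies with the arrays labelled male (0.54 to 1.18 and 3.57 to 4.09). The sex label of WT 3 therefore goes against its Y-linked transcripts, and every result that uses the labelled sex rests on a doubtful label. Levels here and below are log2 signal after subtracting each array's 75th percentile, and differences are KO minus WT on the same log2 scale, with their standard error (SE). The number of arrays limits the precision. Of 10 listed macrophage markers 9 were measured, all well above background on 6 arrays, and none passed the test. Their summed level ran from 8.85 to 8.95 in KO and from 8.71 to 8.96 in WT, with Lyz2 at the largest positive difference (0.32 ± 0.15) and Cd14 at the largest negative one (-0.21 ± 0.15). In a culture, fewer cells of a type and less RNA per cell cannot be told apart.

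Hmox1, which encodes heme oxygenase 1, read 7.40, 7.37 and 7.55 in KO 947, KO 948 and KO 949, against 4.99, 5.83 and 5.08 in WT 1, WT 2 and WT 3 (2.14 ± 0.25, adjusted p = 0.0114). The groups did not overlap, and a second Hmox1 probe had a difference of 3.82 ± 0.35. With slide as a block the first probe was at 2.10 and no longer called (adjusted p = 0.0739). The single probe of Bach1 read 1.45, 2.00 and 2.23 in KO and 2.21, 2.48 and 2.59 in WT (-0.54 ± 0.24, adjusted p = 0.262), with KO 949 just above the lowest WT array. No source read here places that probe inside or outside the deleted part, and it is no check of the genotype.

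Promoter sequences were read because the tested factor acts on DNA, and those of 3 genes are shown. Slc25a38 and Alas1 are shown as the only members with a match to a motif searched here. Uros is shown for its pair of annotated starts and its pair of probes that differed. RefSeq (build GRCm38.p6) gave 10 windows, each 250 bases before to 50 bases after an annotated start, for 7 of the 9 genes (not for Fech and Slc25a37). They are written 5′ to 3′ on the strand of the gene, and capitals mark motif matches. These were searched on both strands: TGACNNNGC, the core of the antioxidant response element, TGANTCA, the core shared by AP-1 and NF-E2 type factors, GCTGANTCA, its extension toward a Maf recognition element, which contains TGANTCA, and GCGCATGCG, from the palindrome bound by nuclear respiratory factor 1, which regulates mitochondrial genes.
Slc25a38, chr9:120110132-120110431, plus strand: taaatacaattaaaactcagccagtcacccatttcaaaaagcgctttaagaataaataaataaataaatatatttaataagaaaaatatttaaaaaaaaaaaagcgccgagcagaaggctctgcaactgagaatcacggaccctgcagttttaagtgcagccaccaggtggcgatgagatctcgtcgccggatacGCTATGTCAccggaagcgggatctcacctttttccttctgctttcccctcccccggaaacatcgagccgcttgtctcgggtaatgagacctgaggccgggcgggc
Alas1, chr9:106247681-106247980, minus strand: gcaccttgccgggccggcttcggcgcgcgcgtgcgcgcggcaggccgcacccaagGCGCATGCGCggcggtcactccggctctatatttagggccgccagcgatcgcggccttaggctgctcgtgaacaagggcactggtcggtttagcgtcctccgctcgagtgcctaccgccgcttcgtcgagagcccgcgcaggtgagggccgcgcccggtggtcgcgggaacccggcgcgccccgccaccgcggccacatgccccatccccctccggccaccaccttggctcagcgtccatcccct
Uros, chr7:133709246-133709545, minus strand: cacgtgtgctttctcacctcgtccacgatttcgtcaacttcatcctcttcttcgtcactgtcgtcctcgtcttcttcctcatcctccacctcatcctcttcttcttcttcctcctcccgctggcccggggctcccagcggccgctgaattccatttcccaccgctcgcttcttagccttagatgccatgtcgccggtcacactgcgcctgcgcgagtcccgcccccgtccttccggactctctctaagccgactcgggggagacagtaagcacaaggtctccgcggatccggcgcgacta
Uros, chr7:133702451-133702750, minus strand: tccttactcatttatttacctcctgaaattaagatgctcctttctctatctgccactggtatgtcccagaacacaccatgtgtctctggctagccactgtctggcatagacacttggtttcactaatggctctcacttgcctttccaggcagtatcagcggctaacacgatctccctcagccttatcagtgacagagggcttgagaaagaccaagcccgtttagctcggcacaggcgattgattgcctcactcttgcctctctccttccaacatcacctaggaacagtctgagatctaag
The core TGACNNNGC was found in 1 of the 10 windows, that of Slc25a38, on the opposite strand and starting 55 bases before the annotated start. It was in 12.39% of all 32851 promoter windows. TGANTCA was in 0 of the 10 windows and in 7.81% of all, and its extension was in 0 of 10 and in 1.19% of all. GCGCATGCG lay in both overlapping Alas1 windows, of which 1 is printed, once on each strand with overlap, and in 1.75% of all windows. A match describes these letters in these windows and no more.

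None of the 9 genes passed the test between genotypes. At an adjusted p under 0.05, 0 of 9 were called, against a background of 3.41% of all genes tested. None had an unadjusted p under 0.05, which 20.4% of all genes had, and in 0 of 9 did the KO arrays lie wholly on one side of the WT arrays, which happened in 26.9% of all genes. The differences ran from -0.47 for Slc25a37 to 0.38 for Cpox, with 4 above 0 and 5 below 0 and a median of -0.01, beside -0.01 over all genes. The median size of the difference was 0.18 for these genes and 0.25 for all genes tested. For 7 of the 9 the 95% interval lay within a 2-fold change either way. The interval of Cpox includes a 2-fold rise and that of Slc25a37 a 2-fold fall, so those sizes are not excluded by 3 arrays a genotype. Scaling by the median of each array in place of its 75th percentile moved the median of all genes to 0.21, and then 8 of the 9 were above 0 (median 0.21), so no common direction is drawn. Over all genes, 180 were called higher and 357 lower in KO, against 384 and 230 with that scaling.

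**Figure D1:**
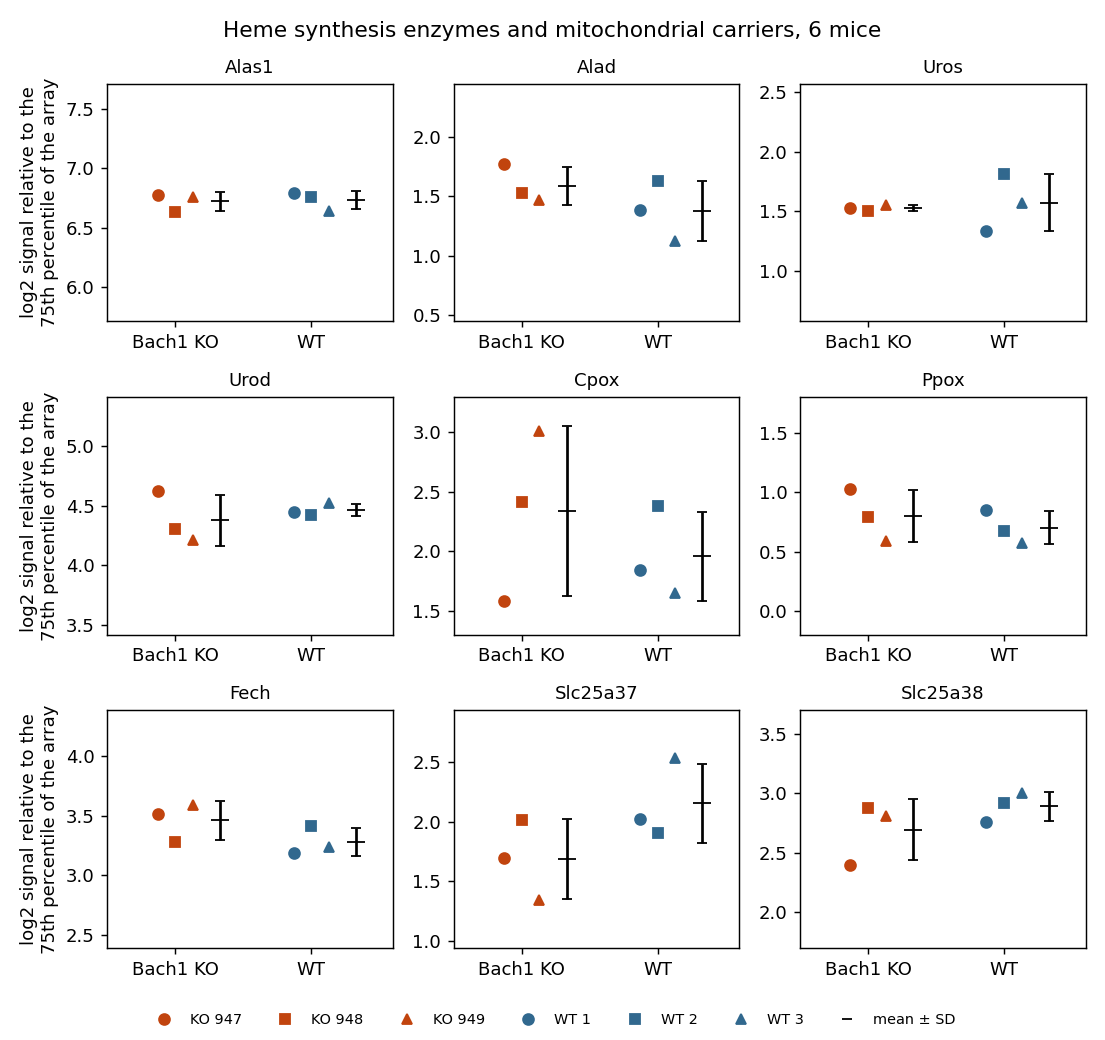
Levels of the 9 genes on each array, as log2 signal minus each array's 75th percentile (vertical axes all span 2 log2 units), with Bach1 KO at the left and WT at the right of each panel and the mean ± SD of 3 arrays beside the points. The genotypes overlap in every panel; Alas1 has the narrowest range over the 6 arrays and Cpox the widest.

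Among the enzymes inside mitochondria, Alas1, which commits glycine to heme, was the steadiest through the brighter of its probes. It read 6.78, 6.63 and 6.76 in KO 947, KO 948 and KO 949, against 6.79, 6.76 and 6.65 in WT 1, WT 2 and WT 3. The 6 arrays lay within 0.16 of each other, with the lowest value in KO and the highest in WT. The difference was -0.01 ± 0.14 (adjusted p = 0.978), a ratio of KO to WT of 0.993 with a 95% interval from 0.794 to 1.24.

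Cpox, coproporphyrinogen oxidase, which acts in the space between the mitochondrial membranes, was the most variable member. It read 1.58, 2.42 and 3.01 in KO and 1.84, 2.38 and 1.65 in WT. KO 947 was the lowest and KO 949 the highest of all 6 arrays, a range of 1.43. The mean was 2.34 ± 0.72 in KO and 1.96 ± 0.38 in WT (SD, n = 3 each), and the difference of 0.38 ± 0.38 did not pass (adjusted p = 0.620, ratio 1.30, interval 0.695 to 2.44). With the slide as a block, a fit in which KO 947 alone sets the contrast, it was -0.37, so the sign depends on which KO array is used. Leaving out 1 array at a time gave 0.045 (without KO 949) to 0.76 (without KO 947).

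Ppox, protoporphyrinogen oxidase, read 1.03, 0.79 and 0.59 in KO and 0.85, 0.68 and 0.58 in WT. The groups overlapped, and the difference was 0.10 ± 0.17 (adjusted p = 0.785). Fech, ferrochelatase, which inserts iron into protoporphyrin, read 3.51, 3.28 and 3.59 in KO and 3.19, 3.42 and 3.24 in WT. KO 947 and KO 949 lay above all WT arrays and KO 948 within their range, and the difference was 0.18 ± 0.16 (adjusted p = 0.560, interval of the ratio 0.878 to 1.47).

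The cytosolic enzymes also overlapped between genotypes. Alad, which joins aminolevulinic acid into porphobilinogen, read 1.77, 1.53 and 1.46 in KO and 1.38, 1.62 and 1.12 in WT. KO 947 was the highest array and WT 3 the lowest, and the difference was 0.21 ± 0.18 (adjusted p = 0.569, interval of the ratio 0.855 to 1.56). Urod, which removes carboxyl groups from uroporphyrinogen, read 4.62, 4.31 and 4.21 in KO and 4.45, 4.43 and 4.52 in WT. KO 947 was above and KO 948 and KO 949 below every WT array, for a difference of -0.09 ± 0.16 (adjusted p = 0.798).

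Uros, which closes the porphyrin ring as uroporphyrinogen III, read 1.53, 1.50 and 1.55 in KO and 1.34, 1.81 and 1.57 in WT through the probe named by its accession. The KO arrays lay within the WT range, with an SD of 0.03 against 0.24, and the difference was -0.05 ± 0.16 (adjusted p = 0.902). Of the 3 cytosolic enzymes 1 was higher and 2 were lower in KO (median -0.05), and of the 4 mitochondrial ones 3 were higher and 1 was lower (median 0.14), all of them short of the threshold.

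The carriers had the lowest differences of the 9. Slc25a37, mitoferrin 1, which brings iron into mitochondria, read 1.70, 2.01 and 1.34 in KO 947, KO 948 and KO 949, against 2.03, 1.91 and 2.53 in WT 1, WT 2 and WT 3. KO 949 was the lowest and WT 3 the highest array, the 2 that carry the female label, while KO 948 lay between the other two WT arrays. The means were 1.69 ± 0.33 in KO and 2.16 ± 0.33 in WT (SD, n = 3 each), and the difference of -0.47 ± 0.24 did not pass (adjusted p = 0.335, ratio 0.721, interval 0.482 to 1.08). Over leaving out 1 array at a time it ran from -0.64 to -0.28.

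Slc25a38, which is needed for glycine to enter mitochondria for the first step, read 2.40, 2.87 and 2.81 in KO and 2.75, 2.91 and 3.00 in WT. KO 947 was below every WT array, and KO 948 and KO 949 were within their range. The difference was -0.20 ± 0.18 (adjusted p = 0.585). Blocking on slide gave -0.49 (limma, adjusted p = 0.257). It was the 1 member whose unadjusted p lay under 0.05 in that fit, as it did in 18% of all genes.

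**Figure D2:**
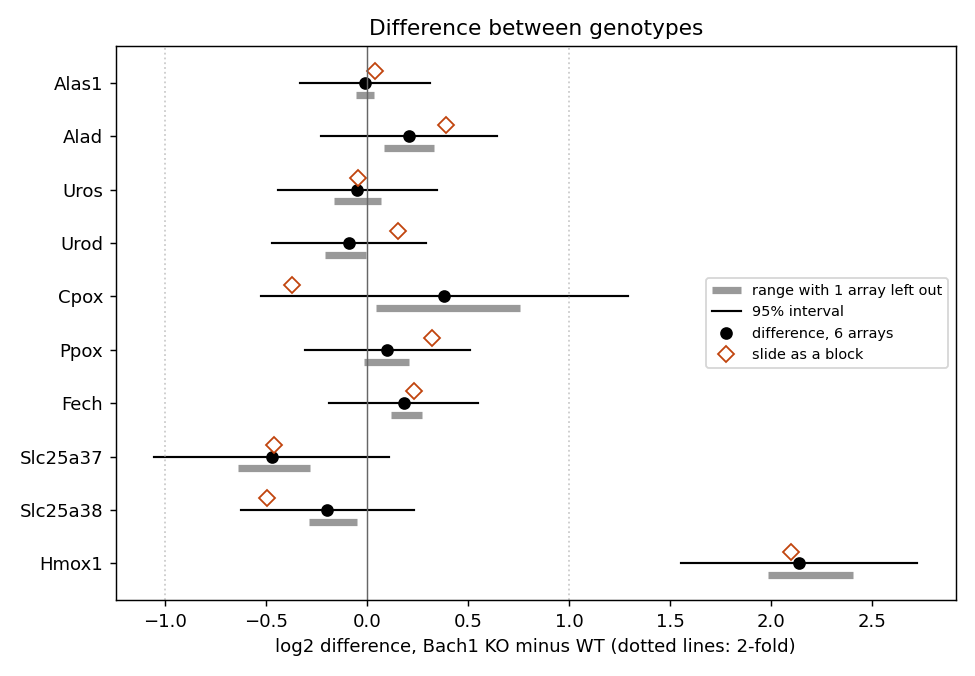
Difference of each of the 9 genes and of Hmox1 between Bach1 KO and WT on the log2 scale, with its 95% interval (line), the value blocked on slide (diamond) and the range over leaving out each array (grey bar); dotted lines mark a 2-fold change. Each of the 9 intervals includes 0, whereas that of Hmox1 lies wholly above a 2-fold rise.

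Under the slide as a block 0 of the 9 were called, beside 0.534% of all genes. The values of that fit ran from -0.49 to 0.39, and 3 of the 9 had the other sign than in the fit of all 6 arrays, namely Alas1 (0.04), Urod (0.15) and Cpox (-0.37). Within the slide that holds both genotypes the differences were the same numbers, and 0 of 9 were called there too. Between the slides, the mean of KO 948 and KO 949 was 1.13 above KO 947 for Cpox and 0.44 above it for Slc25a38, and 0.36 below it for Urod. What the slide adds to these values was not tested, since no WT array lies on the second slide.

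For 3 genes a further probe was on the array, and the probes of a gene did not always read alike. The second Alas1 probe read 1.58, 1.55 and 1.29 in KO and 1.05, 1.13 and 1.26 in WT. The lowest KO array, KO 949, lay narrowly above the highest WT array, and the difference of 0.33 ± 0.17 did not pass in a test of all probes (adjusted p = 0.355). The first Alas1 probe had a difference of -0.01, so the steadiness of Alas1 rests on that probe. Of the 11 probes, 1 had genotypes that did not overlap, against 24.5% of all probes tested, and 0 were called, against 1.04%.

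The second Slc25a37 probe read -1.49, -1.36 and -0.77 in KO and -1.60, -1.67 and -0.96 in WT. KO 949, the lowest array on the first probe, was the highest on this one, and the difference was 0.21 ± 0.28 (adjusted p = 0.735) where the first probe gave -0.47. The direction of Slc25a37 is therefore not settled by these arrays.

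A further probe stood out for Uros. It carries an Ensembl transcript identifier and is named Uros in the authors' deposited table, which gives it a predicted RefSeq transcript. It read -1.54, -1.35 and -1.84 in KO 947, KO 948 and KO 949, against -3.09, -2.56 and -3.05 in WT 1, WT 2 and WT 3, with all 6 arrays well above background. The means were -1.58 ± 0.24 in KO and -2.90 ± 0.30 in WT (SD, n = 3 each), a difference of 1.32, where the accession-named probe had -0.05. In all 3215 probes of that table the genotypes do not overlap. This probe is thus named from a set in which every probe separates them, and its difference is given with no test. No source read here says which annotated Uros start its transcript uses.

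**Figure D3:**
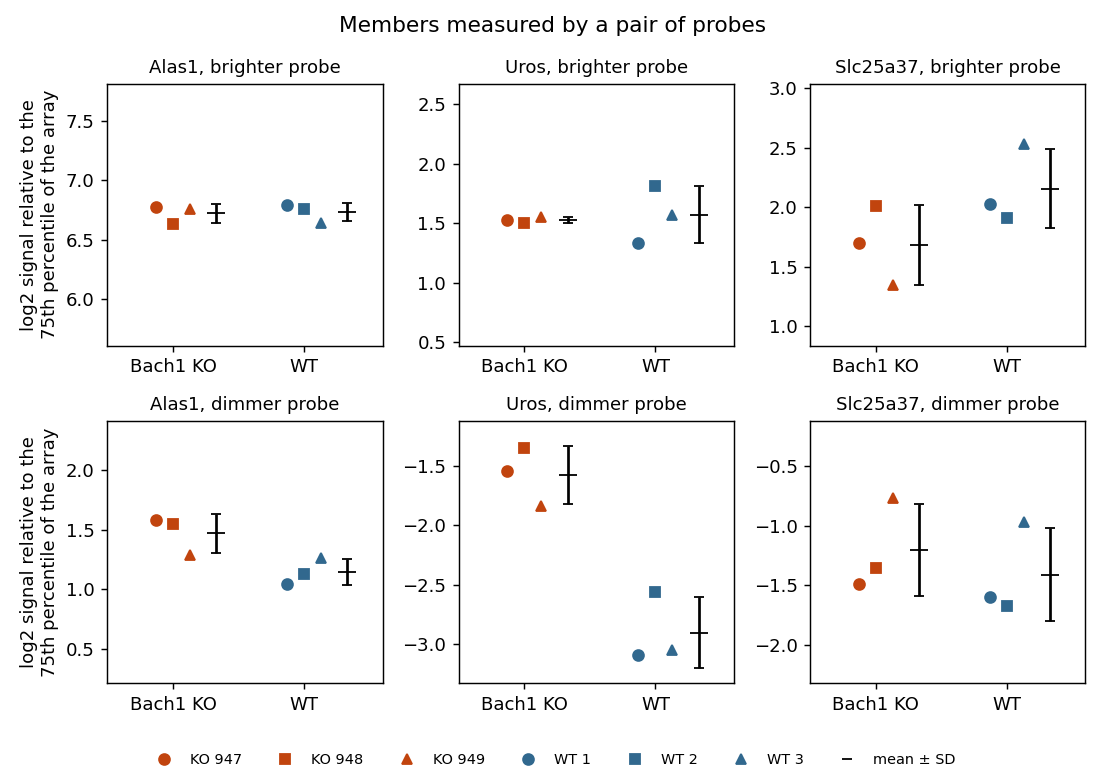
Levels of the brighter probe (top) and the dimmer probe (bottom) of Alas1, Uros and Slc25a37 on each array, in log2 signal minus each array's 75th percentile, with Bach1 KO left of WT and the mean ± SD of 3 arrays. The dimmer Uros probe reads at or above -1.84 on all KO arrays and at or below -2.56 on all WT arrays, whereas the brighter one overlaps.

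No member passed the test between the labelled sexes. Female minus male, with genotype as covariate, ran from -0.28 for Alad to 0.27 for Cpox, and 0 of 9 were called, beside 0.00635% of all genes. Without WT 3, whose label is in doubt, the values ran from -0.51 for Slc25a37 to 1.01 for Cpox, and 0 of 9 were called. KO 949 was then the only array labelled female, assumed to vary like the others, so this fit says little about sex. The interaction of genotype and labelled sex called 0 of 9, beside 0.0254% of all genes. Its unadjusted p was under 0.05 in 1 of 9, against 7.12% of all genes. That gene was Slc25a37, with KO minus WT at -1.19 in the mice labelled female and -0.11 in those labelled male (adjusted p = 0.670). Cpox had 1.36 in the mice labelled female and -0.11 in those labelled male (adjusted p = 0.720). Each female value sets 1 array, KO 949, against 1 array, WT 3, whose label is in doubt, so the spread comes from the arrays labelled male. The Slc25a37 values of this paragraph are from its first probe. Its second probe read -0.77 on KO 949 and -0.96 on WT 3, and KO minus WT was 0.215 in the mice labelled male. The genes called for the interaction include the Y-linked Ddx3y and Eif2s3y, whose levels put the label of WT 3 in doubt.

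Correlations among the 9 genes went both ways. Of their 36 pairs, 19 had a Pearson correlation above 0 over the 6 arrays, with a median of 0.02. The highest was 0.66, between Alad and Ppox, and the lowest was -0.94, between Urod and Cpox, with Ppox and Slc25a38 at -0.86. Points share an array and its scaling, so these values describe 6 arrays and no more. The genes most like Cpox among 14092 genes were Tbc1d8b (0.996), Gpr141 (0.995) and Triqk (0.995), and those most like Slc25a37 were Parp10 (0.996), Doc2g (0.982) and Gm3448 (0.977). They were picked as the highest of 14092 values over 6 arrays and were not tested. Slc25a37 was read here through its first probe only.

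Genes around the pathway were read from lists chosen for their roles. Of 12 listed partners of heme synthesis 11 were measured and 0 passed (median 0.06, 7 above 0). Slc25a28, the second mitoferrin, read 1.74, 1.58 and 1.23 in KO and 2.02, 1.95 and 2.14 in WT. Its KO arrays were all below its WT arrays, but the difference of -0.52 ± 0.18 did not pass (adjusted p = 0.166).

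Iron-sulfur cluster assembly, which draws on the same mitochondrial iron, had 12 of 13 genes measured and 0 called (median 0.09). Lyrm4, a subunit of the cysteine desulfurase complex, read 2.78, 2.56 and 2.49 in KO and 1.83, 2.09 and 2.14 in WT, without overlap (0.59 ± 0.16, adjusted p = 0.108), and Iba57 was at -0.26 ± 0.14 (adjusted p = 0.362). All 5 genes of glycine and succinyl-CoA supply were measured and 0 passed (median 0.08). Suclg2, a subunit of succinyl-CoA synthetase, read -0.75, -1.45 and -1.26 in KO and -2.10, -1.95 and -2.21 in WT (0.94 ± 0.21, adjusted p = 0.0695), and Shmt2 was at -0.06 ± 0.16.

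All 9 genes of heme breakdown and transport were measured, of which 2 rose, 7 did not pass and 0 fell (median 0.34), beside 1.14% of all genes called higher. The rises were Hmox1 and the iron exporter gene Slc40a1, at 6.30, 6.42 and 6.53 in KO and 4.38, 5.28 and 4.38 in WT (1.74 ± 0.27, adjusted p = 0.0280). Blocked on slide, Slc40a1 was at 1.62 (adjusted p = 0.139), so like that of Hmox1 its call did not hold. These 2 genes are known to be bound and repressed by Bach1.

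Of 17 listed proteins that carry heme or assemble with one that does, 14 were measured and 1 rose (median 0.04), beside the same 1.14% of all genes. Ptgs1, the heme enzyme cyclooxygenase 1, read 5.75, 5.80 and 5.85 in KO and 5.02, 4.97 and 4.83 in WT (0.86 ± 0.14, adjusted p = 0.0294). Blocked on slide it was at 0.80 (adjusted p = 0.118). Of 13 listed regulators 11 were measured and 0 passed (median -0.03). Nr1d2, a nuclear receptor that binds heme, was at 0.97 ± 0.20 (adjusted p = 0.0520), and Nfe2l1 at -0.82 ± 0.30 (adjusted p = 0.190).

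**Figure D4:**
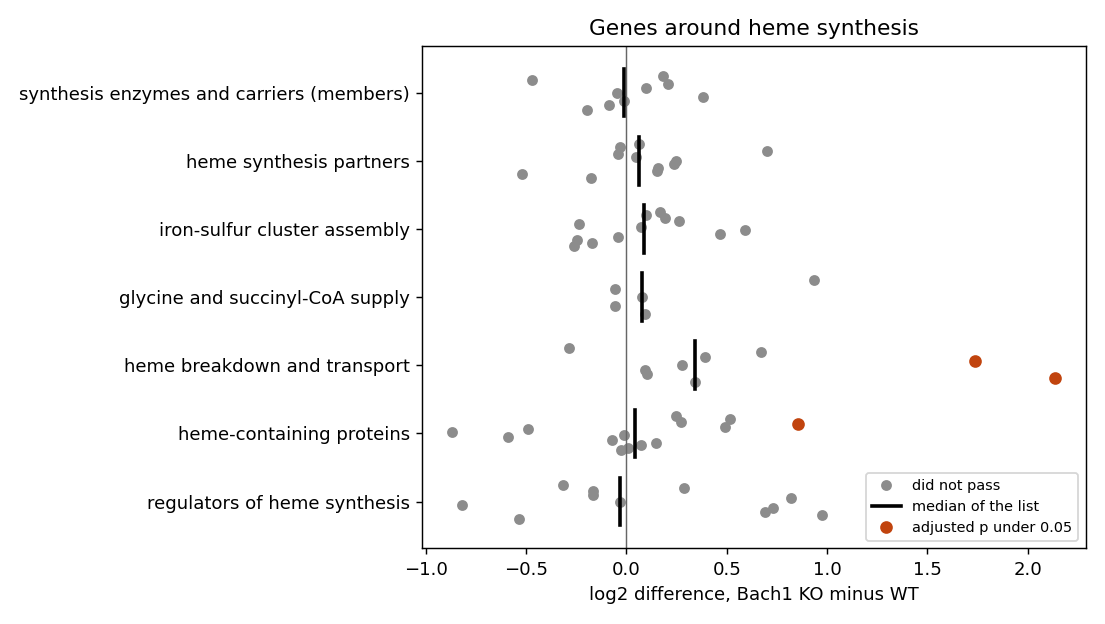
Difference of each measured gene between Bach1 KO and WT on the log2 scale, by list, with the list's median as a bar; the vertical offset within a list has no meaning. Coloured points passed at an adjusted p under 0.05 and are Hmox1 and Slc40a1 (2.14 and 1.74) and Ptgs1 (0.86), and none lies among the synthesis enzymes and carriers.

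Markers of other cell types were read beside these values. Alas2, the red cell form of the first enzyme, was well above background on 1 of 6 arrays and was not tested. Of 12 erythroid markers 6 were measured and 0 passed. Their summed level ran from -0.22 to -0.11 in KO and from -0.10 to 0.27 in WT, with Hba-a1 at -0.53 ± 0.24 (adjusted p = 0.276) and Epor at 0.18 ± 0.23. Calls lower in KO are set beside 2.27% of all genes. Of 14 dendritic cell markers, all measured, 5 fell (median -0.70), among them Ccr7, a chemokine receptor (-2.60 ± 0.24), and Ciita, the activator of class II genes (-1.89 ± 0.19), and the summed level was 8.77 to 8.89 in KO and 9.29 to 9.57 in WT. Of 11 granulocyte markers, all measured, 1 fell, S100a9 (-1.01 ± 0.15), while 10 did not pass and 1 was above 0 (median -0.90, summed level 7.49 to 7.86 in KO and 8.06 to 8.46 in WT). Of 12 eosinophil, mast cell and basophil markers 10 were measured and 3 were called lower, Mcpt8, Prss34 and Kit (median -2.87). Siglecf was the 1 gene of that list above 0 (0.47 ± 0.22). The summed level was 2.81 to 4.54 in KO and 4.68 to 5.80 in WT. Prg2, which did not pass, was the brightest of these markers on every array but KO 949. There Siglecf was the brightest (2.56) and Prg2 read -0.58. Mcpt8 was well above background on 3 WT arrays and 0 KO arrays. It passed the filter through WT alone, and the size of its difference is uncertain. Kit, and Col1a1 of the next list, were well above background on 2 of 3 KO arrays. Of 10 stromal markers 8 were measured, of which Sparc, Col1a1 and Col1a2 fell, Fn1 rose and 4 did not pass (median -2.94). Their summed level was 5.91 to 6.24 in KO and 4.44 to 6.02 in WT, and Fn1, the 1 gene of the list above 0, had a mean of 5.95 in KO and 4.16 in WT. Blocked on slide, the calls numbered 1 dendritic, 0 granulocyte, 0 eosinophil, mast cell and basophil and 1 stromal marker. The part of these cells in the values of the 9 genes was not tested.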

How the data were processed

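RNA of cultured macrophages from 6 mice was hybridised to 1-colour Agilent arrays, 1 array per mouse. The deposited scanner files hold intensity per spot, background-subtracted by Feature Extraction 10.7.3.1 on a design of build mm9, per the file headers (the submitters' processing notes name version 9.1). The authors' deposited table holds log2 values of 3215 probes, each centred on its median over the 6 arrays, with scaling not given in the sources used here. Here the log2 processed signal minus the log2 75th percentile of the array was used, without outlier spots, for probes well above background on at least 3 of 6 arrays. Probes were named through RefSeq (GRCm38.p6) by transcript accession, and the probe with the highest mean stood for a gene. Genotypes were compared with limma 3.58.1 in R 4.3.3 (lmFit and eBayes, two-sided, Benjamini-Hochberg over all 15736 genes, threshold 0.05), tested on simulated data. Every member is named, with Hmox1 and Bach1, from other lists the called genes or, where none passed, the gene at either end (Alas2 was added after its values were seen, and some genes the rule names are not reported here), and the 3 genes most alike to Cpox and Slc25a37. The members and lists were chosen with earlier results of these data known. Nothing states how cultures were split, so p-values measure the spread between these arrays. Scaling, filters, slide, labelled sex, probe choice and single arrays were varied.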

Additional observations from a re-analysis of the deposited data

Results flagged for a closer look

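The further Uros probe, which the gene-level test does not use, was higher in KO than in WT by 1.32 on the log2 scale, with levels of -1.84 to -1.35 in KO and -3.09 to -2.56 in WT. Its signal lies outside the measurement used for the gene, as do the second probes of Alas1 and Slc25a37, which were not flagged. It is named only in the authors' deposited table, whose probes all separate the genotypes, so the difference carries no test.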

How the results depend on the processing

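No member was called under any of the 19 alternatives, and of 171 member values 21 changed sign, none of them past the threshold. Outside the fits that left out 1 array, the sign of Alas1 turned (0.070 with quantile normalization, 0.21 with median scaling, 0.084 with normexp, 0.042 with the slide as a block or 1 slide only, 0.0078 with a random block, 0.16 as the mean of its probes). So did those of Uros (0.17 with median scaling), Urod (0.13 with median scaling, 0.15 with the block or 1 slide, 0.025 in males only), Slc25a38 (0.020 with median scaling) and Cpox (-0.37 with the block or 1 slide, -0.11 in males only). On leaving out 1 array, Alas1 turned without WT 1, WT 2 or KO 948, Uros without WT 2 and Ppox without KO 947. The second Slc25a37 probe turned to -0.075 with the block or 1 slide. Leaving out each array in turn gave -0.054 to 0.034 for Alas1, -0.17 to 0.071 for Uros, -0.013 to 0.21 for Ppox, 0.045 to 0.76 for Cpox, -0.21 to -0.0032 for Urod, -0.29 to -0.049 for Slc25a38, 0.083 to 0.33 for Alad, 0.12 to 0.27 for Fech, -0.64 to -0.28 for Slc25a37 and -0.0090 to 0.43 for the second Slc25a37 probe. The value nearest 0 came without KO 947 for Slc25a38, without KO 949 for Cpox, Urod and Fech, and without WT 3 for Alad and Slc25a37. Over all genes 537 were called, against 342 with quantile normalization, 275 with no filter, 84 with the slide as a block, 24 on 1 slide, 255 with a random block, 305 with sex as a covariate, 182 in males only and 810 with trend and robust settings. Leaving out 1 array gave 77 (without WT 1) to 900 (without KO 947). Hmox1 was no longer called with the block (2.10, adjusted p = 0.0739), on 1 slide, in males only (1.97, adjusted p = 0.0813) or without WT 1 (1.98, adjusted p = 0.0518). Between labelled sexes 1 gene was called with limma, and 0 with normexp, with no filter or with the filter on all 6 arrays, and 0 to 2 on leaving out an array, while Alas1 turned to 0.014 with quantile normalization, 0.030 with median scaling and 0.012 with normexp. The interaction called 4 genes, and 0 to 28 on leaving out an array labelled male. It was not fitted without KO 949 or WT 3. The cause of these changes was not tested. The fits of the second probes and of sex without single arrays were chosen after seeing the data. No paired analysis was possible because the genotypes share no replicate numbers.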
